A study of Mus musculus with 9 samples.

Results

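The 6 libraries of both knockout groups were set together against the 3 wild-type (WT) libraries of mouse testis on postnatal day 7, so that all 9 libraries of the series were used. Messenger RNA was enriched with oligo(dT) beads. One group of 3 is labelled as a knockout of Gm1142, and the other group of 3 as a double knockout of Gm1142 and Gm4779. No strain, litter, kind of allele, pairing or batch is named in the labels. Nothing in the labels says that the replicates came from separate animals, so each p-value reflects the spread of these libraries alone, and that spread may be technical. Each knockout group was given the same weight, whatever the depth of its libraries. The question is which transcripts moved the same way in both groups, and which of those moves could also arise from a strain difference or from the placement of reads on near-identical genes.

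WT libraries held 4514237 to 5091624 counts, those labelled Gm1142 knockout 4597447 to 5243756, and those of the double knockout 4370124 to 8359594. Of 56691 genes, 17251 had enough counts to be tested. In a principal component analysis the leading axis (37.2% of the variance) separated the group labelled Gm1142 knockout from the remaining libraries. Its replicate 2 had the lowest scaling factor (0.856), the highest share of mitochondrial counts (38.9%) and the lowest Actb (172 CPM, the count scaled to a common library size). Markers of germ, Sertoli, Leydig, peritubular, stromal, endothelial, macrophage, red and duct cells were present, with none of them at 0 in all libraries.

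The targeted genes were read first. Gm1142 (symbol 8030474K03Rik, ENSMUSG00000046774.18, X chromosome) had 56, 50 and 41 counts in WT, 65, 46 and 50 in the group labelled Gm1142 knockout, and 0, 0 and 0 in the double knockout. Gm4779 (ENSMUSG00000045010.15), its neighbour on X, had 42, 48 and 53 counts in WT, 88, 61 and 59 in the group labelled Gm1142 knockout, and 0 in the 3 double-knockout libraries. A group count of 0 allows up to 3 counts, or 0.162 CPM over the group, for counting error only. Neither target was therefore lower in both groups, and the averaged log2 fold changes of -4.22 (SE 0.47) and -4.01 (SE 0.48) came from the double knockout alone. With 0 counts there, their size rests on the small count that the fit adds and is not a measured change. By the floor, WT was at least 60.5-fold (Gm1142) and 59.5-fold (Gm4779) above the double knockout. Gene-level counts cannot show a deletion that leaves most of a transcript in place, so the Gm1142 label was not tested, and the directions given below for that group rest on it.

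The seminiferous cords of a mouse of this age hold Sertoli cells and spermatogonia, ahead of the first meiotic wave. The nuclear genome of the mouse carries copies of mitochondrial DNA, and a sequencing read from such a gene can match the mitochondrial gene and a nuclear copy almost equally well. X and Y share a pseudoautosomal region at their ends, whose genes have 1 copy on each. Inbred strains differ in mitochondrial sequence, in the pseudoautosomal region and in the copy number of many gene clusters, so that groups bred on different backgrounds can differ in such genes without any effect of an engineered allele.

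The largest moves in both knockout groups were in 3 mitochondrial genes and in their chromosome 1 copies, and they ran in opposite directions. The first 60 bases of mt-Nd3, a subunit gene of respiratory complex I, are shown with those of its copy Gm28438 because their annotated sequences differ at 1 base of 345 compared. The capital marks that base, and both sequences are from the GENCODE annotation of GRCm38, 5′ to 3′ on the gene's own strand.
mt-Nd3: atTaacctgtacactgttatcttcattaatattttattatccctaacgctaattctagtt
Gm28438: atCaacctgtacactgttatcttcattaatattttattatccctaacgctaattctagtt
The gene lies at chrM:9459-9806 on the plus strand and the copy at chr1:24612775-24613119 on the minus strand. The substitution is T3C, written as the base of the gene, the position from 1 at its first base, and the base of the copy. Position 3 of mt-Nd3 is chrM position 9461, which is known as a polymorphic base among the mitochondrial genomes of common laboratory mice.

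Counts of this pair changed places between the groups. mt-Nd3 (ENSMUSG00000064360.1) had 0, 4 and 4 counts in WT, 319, 209 and 257 in the group labelled Gm1142 knockout, and 186, 267 and 248 in the double knockout. Gm28438 (ENSMUSG00000101939.2) had 506, 669 and 397 counts in WT, 8, 3 and 4 in the group labelled Gm1142 knockout, and 5, 3 and 1 in the double knockout. The ranges of the groups are far apart, and the 6 knockout libraries are alike. The averaged change, on the log2 scale here and below, was 6.42 for mt-Nd3 (SE 0.38, edgeR adjusted p = 1.41e-09) and -7.12 for Gm28438 (SE 0.24, edgeR adjusted p = 3.04e-14). Of the counts of both genes together, mt-Nd3 took 0% to 0.998% in WT, 97.6% to 98.6% in the group labelled Gm1142 knockout, and 97.4% to 99.6% in the libraries of the double knockout.

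The genes on either side of mt-Nd3 did the same. mt-Co3 (ENSMUSG00000064358.1), a subunit gene of cytochrome c oxidase, ends 68 bases before mt-Nd3 and had 1, 6 and 0 counts in WT against 68, 22 and 64, and 56, 117 and 73 in the knockout groups. Its copy Gm28437 (ENSMUSG00000101111.2) had 108, 143 and 69 counts in WT against 2, 2 and 2, and 2, 3 and 0. mt-Nd4l (ENSMUSG00000065947.1), another complex I gene, starts 70 bases after mt-Nd3 and had 1, 1 and 1 counts in WT against 34, 12 and 19, and 15, 24 and 33. Its copy Gm10222 (ENSMUSG00000067736.3) had 44, 71 and 25 counts in WT against 1, 1 and 0, and 0, 1 and 2. The annotated sequences of these 2 pairs had 0 mismatches over 783 and 294 bases compared. The only base of the 3 pairs that tells gene from copy in the annotation lies 71 bases past the end of mt-Co3 and 416 bases before the start of mt-Nd4l.

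Summing each pair leaves a smaller move of the opposite sign to that of the mitochondrial genes. mt-Nd3 and Gm28438 together were at 105 ± 24.3 CPM in WT, 57.8 ± 5.01 in the group labelled Gm1142 knockout and 41.1 ± 13.6 in the double knockout (SD, n = 3 each). The sum had an averaged change of -1.12 (SE 0.16, edgeR adjusted p = 3.68e-04). The sums of mt-Co3 with Gm28437 and of mt-Nd4l with Gm10222 were at -0.80 (SE 0.25, edgeR adjusted p = 0.0639) and -1.05 (SE 0.37, edgeR adjusted p = 0.105) and did not pass. The other 9 tested mitochondrial genes and rRNAs had averaged changes from -0.41 to 0.37, and of these only mt-Nd2 passed (0.37, SE 0.10, edgeR adjusted p = 0.0415), through the group labelled Gm1142 knockout (0.70 against 0.03 in the double knockout). Of 8 tested nuclear copies the 3 named were called lower, and the others, among them Gm29216 (0.07) and Gm43951 (-1.04, SE 0.39, edgeR adjusted p = 0.126), did not pass. The reads were not used here, so the base that each library carries at position 9461 was not tested. A mitochondrial sequence difference between the WT and the knockout mice and a different placement of the same reads cannot be told apart from these counts. Mitochondrial counts were 27.1% to 38.9% of each library, while mt-Nd3 and Gm28438 together had 191 to 673 counts and mt-Co3 and Gm28437 together 24 to 149. Reads that match a gene and its copy may be missing from both counts, so a sum need not hold all reads of its transcripts. The lower sums are therefore not shown to be lower transcript levels, and the part of a change in the transcripts was not tested.

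**Figure D1:**
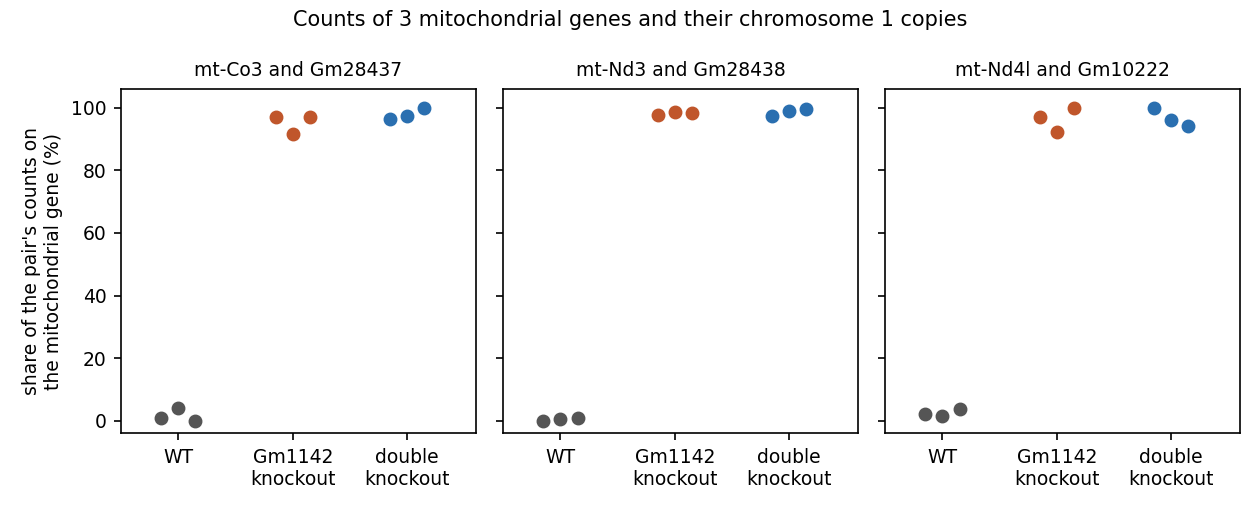
The vertical axis is the share of a pair's counts that was assigned to the mitochondrial gene, in percent, and each point is 1 library (3 per group). In the 3 pairs the WT libraries lie between 0% and 4.03%, and the 6 knockout libraries lie between 91.7% and 100%.

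Across all genes, a gene was called in the average of the knockout groups when the edgeR quasi-likelihood test gave an adjusted p under 0.05. This held for 904 of 17251 genes (5.24%), 486 higher (2.82%) and 418 lower (2.42%). An average can be carried by 1 group: 652 of the 904 (72.1%) also differed between the knockout groups, 94 had opposite signs in them, and 527 had at least 1 knockout library within the range of WT. The other 377 genes (2.19% of those tested) were called and had each of the 6 knockout libraries on one side of each WT library, 185 higher (1.07%) and 192 lower (1.11%). These are called shared below. Without regard to the call, 527 genes (3.05%) had no overlap on the higher side and 472 (2.74%) on the lower side.

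Most shared moves were small in the double knockout. The median log2 fold change of the shared higher genes was 0.82 in the group labelled Gm1142 knockout and 0.43 in the double knockout, and that of the shared lower genes was -0.92 and -0.42. The change was larger in the group labelled Gm1142 knockout for 326 of 377 genes and larger in the double knockout for 51, and its size differed between the groups by the test for 173 (45.9%). Taken alone, the group labelled Gm1142 knockout had 3196 called genes (18.5%), of which 10.2% of all tested were higher and 8.38% lower. The double knockout alone had 16 (0.0927%), with 0.0464% on either side. In 40 shared genes, 24 higher and 16 lower, the smaller of the 2 changes was at least 1 on the log2 scale. Both comparisons use the same WT libraries, so a WT library that deviates moves both. Without WT 1, 57 genes were shared higher and 110 lower. Without WT 3, the counts were 88 and 97, without WT 2 they were 112 and 118, and without replicate 3 of the group labelled Gm1142 knockout 100 genes were shared higher.

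**Figure D2:**
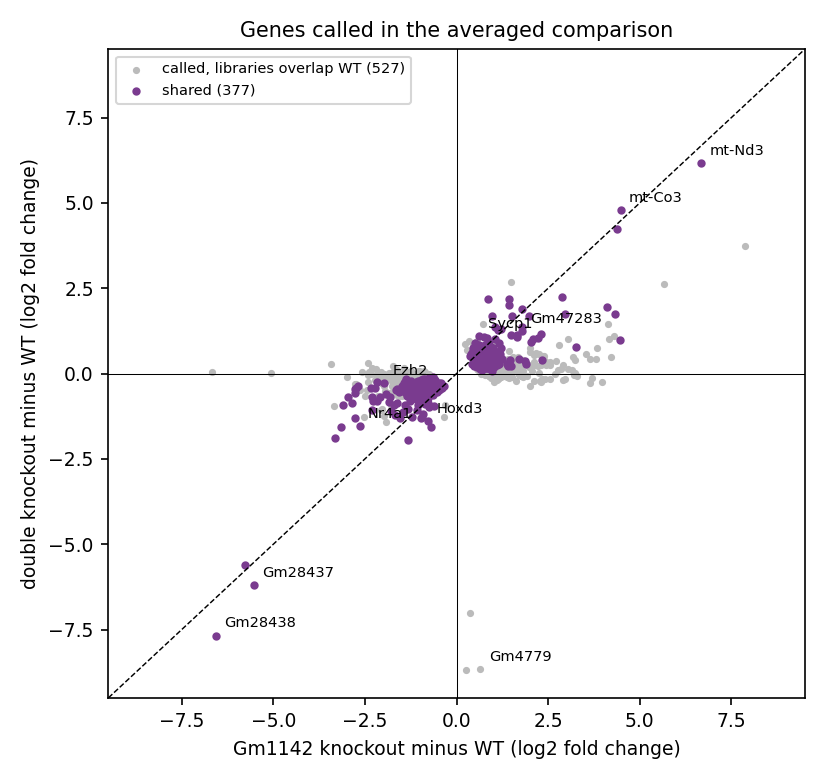
Each point is a gene called in the average, with its log2 fold change against WT in the group labelled Gm1142 knockout on the horizontal axis and in the double knockout on the vertical axis. Shared genes (377) are purple, called genes whose libraries overlap WT (527) are grey, and the dashed line marks equal change. Most purple points lie nearer to 0 on the vertical axis than on the horizontal axis, and both axes share the WT libraries.

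A stricter rule took for each gene the larger of the p-values of the 2 groups, adjusted it over all genes and asked for the same sign, and 8 genes (0.0464%) passed it. They are the 6 genes of the mitochondrial pairs, Nr4a1 and Gm47283. Sycp1, Uchl1 and Hoxd3 did not pass this rule, but each had an edgeR adjusted p under 0.05 in the comparison of each group with WT (0.0130 and 0.0028 for Sycp1, 0.0163 and 0.0177 for Uchl1, 0.0116 and 0.0028 for Hoxd3). With the 6 knockout libraries as 1 group, so that the spread includes the difference between the groups, exactly these 8 passed, 4 higher and 4 lower. Without the mitochondrial genes and their copies, Nr4a1 and Gm47283 were the 2 that passed the stricter rule.

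Nr4a1 was lower in both groups and more so in the group labelled Gm1142 knockout. It encodes an orphan nuclear receptor that cells induce within minutes of a stimulus and that promotes steroid synthesis in Leydig cells. Nr4a1 (ENSMUSG00000023034.8) was at 165, 140 and 166 CPM in WT, 27.0, 23 and 25.1 CPM in the group labelled Gm1142 knockout, and 47.5, 39.9 and 76.3 CPM in the double knockout. The lowest WT library lies above the highest knockout library by a wide margin. The averaged change was -2.09 (SE 0.15, edgeR adjusted p = 2.47e-08). It was -2.64 (SE 0.19) in the group labelled Gm1142 knockout and -1.54 (SE 0.18) in the double knockout, and these differed (edgeR adjusted p = 4.97e-04). The call held in the 9 fits that each left out 1 library.

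Other immediate early genes did not follow it. Of 35 tested, 2 were called higher and 1 lower, against 2.82% and 2.42% of all genes, and the median averaged change of the list was 0.07, against 0.00 over all genes. Per1, a circadian repressor that is also induced by cyclic AMP, was the only shared higher member, at 43.5, 42.4 and 37.7 CPM in WT, 88.6, 143 and 94.4 CPM in the group labelled Gm1142 knockout, and 45.0, 45.5 and 54.1 CPM in the double knockout. The double-knockout libraries lie just above WT (0.22, edgeR adjusted p = 0.753), and the averaged change of 0.81 (SE 0.15, edgeR adjusted p = 0.00355) came mainly from the other group. Klf10 was called higher (0.66, SE 0.18, edgeR adjusted p = 0.041) but overlapped WT. Nr4a2, a close relative of Nr4a1, was at -0.39 (SE 0.37, edgeR adjusted p = 0.622), and Egr1, Fos and Junb were at -0.13, 0.66 and -0.76 without passing.

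Gm47283, which passed the stricter rule like Nr4a1, is the last tested gene of the Y annotation. Gm47283 (ENSMUSG00000096768.9) had 110, 90 and 114 counts in WT, 488, 249 and 280 in the group labelled Gm1142 knockout, and 262, 385 and 249 in the double knockout. No knockout library came near the WT range, and the averaged change was 1.51 (SE 0.17, edgeR adjusted p = 2.30e-05). Of its 50-base words, 40.5% occur in other genes, mainly in Gm21887, the last tested gene of X. Gm21887 (ENSMUSG00000095562.9) had 16, 7 and 18 counts in WT, 61, 46 and 24 in the group labelled Gm1142 knockout, and 51, 104 and 40 in the double knockout, an averaged change of 1.83 (SE 0.37, edgeR adjusted p = 0.00537, lost without WT 2 at 0.0511). Summed, the pair rose by 1.56 (SE 0.17, edgeR adjusted p = 1.42e-05). Both genes rose, so their sum had to rise as well, and it cannot show how reads were placed. Reads that match both genes may be missing from both counts.

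Because of these 2 genes, the end of the X chromosome was read gene by gene, a choice made after their values were seen. Of the last 10 tested X genes, Gm21887 included, 5 were called higher and none lower, against 2.82% and 2.42% of all genes. Of the 5, Gm21887 itself and Gm15247 were shared. Mid1, a ubiquitin ligase gene that spans the boundary of the pseudoautosomal region in laboratory mice, was at 5.17, 5.91 and 1.08 CPM in WT, 17.3, 22 and 26.8 CPM in the group labelled Gm1142 knockout, and 7.08, 3.38 and 5.89 CPM in the double knockout. The double knockout overlapped WT, and the groups differed (2.42 against 0.37, edgeR adjusted p of the difference = 8.30e-04). Gm15247, an antisense RNA between Mid1 and Gm21887 in this order, had 7, 2 and 0 counts in WT, 24, 18 and 24, and 8, 27 and 6, with an averaged change of 2.35 (SE 0.66, edgeR adjusted p = 0.0427). Gm15726, an antisense RNA of low level between Mid1 and Gm15247, moved in opposite directions in the groups. Its changes were 1.40 (SE 0.72) and -1.43 (SE 0.87), with an edgeR adjusted p of the difference of 0.0170. Hccs, which attaches haem to cytochrome c, was called higher (0.83, SE 0.18, edgeR adjusted p = 0.0112), as was the pseudogene BC022960 (2.09, SE 0.60, edgeR adjusted p = 0.0457), and both overlapped WT. Farther in, Arhgap6 and Frmpd4 did not pass, and Msl3 (-0.36, SE 0.12, edgeR adjusted p = 0.078) lay below WT in the 6 knockout libraries without passing. Strain was not given, so a difference in the copies or alleles of this region and a change in its transcription cannot be told apart.

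**Figure D3:**
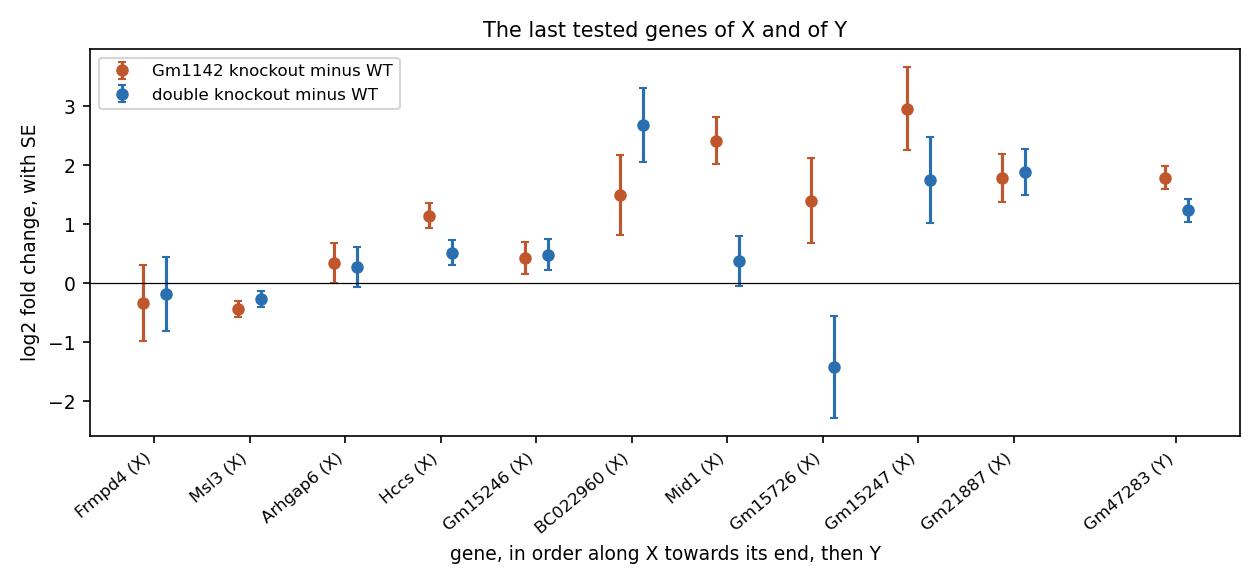
Points are log2 fold changes against WT with their standard errors, for the last 10 tested genes of X in order towards its end and then the last tested gene of Y. Gm21887 on X and Gm47283 on Y are above 0 in both groups (1.24 to 1.89), while Mid1 is high in the group labelled Gm1142 knockout alone.

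Among other Y-linked genes, 2 of 8 listed were shared higher, against 1.07% of all genes. Uba1y, a ubiquitin-activating enzyme expressed in spermatogonia, was at 24.9, 36.5 and 35.5 CPM in WT, 40.01, 48.1 and 50.1 CPM in the group labelled Gm1142 knockout, and 48.6, 58.5 and 71.6 CPM in the double knockout. Its averaged change was 0.70 (SE 0.16, edgeR adjusted p = 0.015), lost without WT 1 (0.15) or WT 3, and 48.1% of its words occur in another gene. The deubiquitinase gene Usp9y (0.84, SE 0.24, edgeR adjusted p = 0.0477) lost its call without any of 7 libraries, with 0.255 without WT 3. Ddx3y, Eif2s3y, Kdm5d and Uty, which most male cells express, had averaged changes from -0.11 to 0.28 and did not pass.

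A few germ-cell and meiotic genes were higher in both groups. Of 27 genes expressed across germ-cell stages 5 were called higher and none lower, and of 32 genes of meiotic entry and prophase 4 were called higher and none lower, against 2.82% and 2.42% of all genes. The median averaged changes were 0.39 and 0.33, against 0.00 over all genes, and they were larger in the double knockout (0.65 and 0.56) than in the group labelled Gm1142 knockout (0.13 and 0.20). Shared members were Sycp1, Smc1b and Ankrd31 of the meiotic list and Uchl1, Dnd1 and Stk31 of the other. EdgeR called 0 of 18 genes of undifferentiated and 0 of 13 genes of differentiating spermatogonia. At an unadjusted p under 0.05 there were 1 and 6, DESeq2 called 0 and 2 (Dnmt3b and Stra8), and limma-voom 0 and 1. Stra8, which retinoic acid induces before meiosis, was at 0.82 (SE 0.25, edgeR adjusted p = 0.0594).

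Sycp1 encodes the transverse filaments of the synaptonemal complex that joins paired chromosomes. It was at 29.9, 43.4 and 37.0 CPM in WT, 54.6, 59.3 and 55.8 CPM in the group labelled Gm1142 knockout, and 62.2, 85.5 and 88.3 CPM in the double knockout. The groups do not overlap, and the double knockout is the highest. The averaged change was 0.86 (SE 0.15, edgeR adjusted p = 0.00181), with 0.62 (SE 0.17) and 1.10 (SE 0.17) in the groups. Smc1b, the meiotic cohesin subunit gene, was at 30.4, 31.3 and 23 CPM in WT, 36.5, 35.0 and 51.1, and 45.2, 54.9 and 53.2 CPM (0.69, SE 0.16, edgeR adjusted p = 0.0159). Ankrd31, needed for recombination in the pseudoautosomal region, was at 10.7, 12.4 and 18.7 CPM in WT, 20.6, 22.8 and 31.1, and 27.2, 27.3 and 30.8 CPM (0.93, SE 0.21, edgeR adjusted p = 0.0115). Both gains are clear of WT by little: the call of Ankrd31 was lost without WT 1 (0.113) or WT 2, and that of Smc1b without WT 1, WT 3 (0.129) or replicate 3 of the group labelled Gm1142 knockout.

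Uchl1, a deubiquitinase abundant in spermatogonia, was at 50.7, 52.6 and 51.7 CPM in WT, 63.3, 70.8 and 83.9 CPM in the group labelled Gm1142 knockout, and 84.4, 92.4 and 87.9 CPM in the double knockout (0.63, SE 0.12, edgeR adjusted p = 0.00408). Its WT libraries are nearly equal, and its call held whichever library was left out. Dnd1, an RNA-binding protein gene that primordial germ cells need to survive, went from 12.7 ± 1.73 to 20.2 ± 2.28 and 22.2 ± 2.34 CPM (0.73, SE 0.19, edgeR adjusted p = 0.0294). Stk31, which encodes a kinase-like protein of germ cells, went from 21.0 ± 3.93 to 32.3 ± 5.28 and 33.2 ± 5.71 CPM (0.65, SE 0.18, edgeR adjusted p = 0.0373). The call of Dnd1 was lost without any of 4 libraries (0.164 without WT 1) and that of Stk31 without any of 6 (0.193 without WT 3).

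The most abundant germ-cell marker did not join them. Dazl, an RNA-binding regulator of germ-cell translation, was at 179, 226 and 181 CPM in WT, 138, 103 and 131 CPM in the group labelled Gm1142 knockout, and 305, 368 and 370 CPM in the double knockout, so that the groups moved apart from WT in opposite directions and the average was 0.09 (SE 0.12, edgeR adjusted p = 0.738). The summed level of Ddx4, Dazl and Mael was 268 to 321 CPM in WT, with 179 to 235 CPM in the group labelled Gm1142 knockout, below WT, and 418 to 533 CPM in the double knockout, above it. The part of germ-cell content in the shared gains was not tested. In tissue libraries such as these, more cells of a type and more RNA per cell cannot be told apart.

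On the lower side, some homeobox genes of the Hox clusters and some genes of the epididymis and its ducts fell in both groups. Of 28 tested Hox genes none was called higher and 3 were called lower, each of them shared, against 1.11% of all genes shared lower. The median change of the list was -0.40 in the average, -0.07 in the group labelled Gm1142 knockout and -0.62 in the double knockout. Hoxd3, which helps set position along the body axis, was at 36.0, 30.7 and 44.4 CPM in WT, 21.6, 25.6 and 17.9 CPM in the group labelled Gm1142 knockout, and 15.1, 11.7 and 15.6 CPM in the double knockout. WT is clear of both groups, and the double knockout is the lowest (averaged change -1.09, SE 0.17, edgeR adjusted p = 8.72e-04). Of the words of Hoxd3, 60.3% also lie in an overlapping gene, so its reads are not certain to be its own.

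Hoxd8, of the same cluster, was at 40.6, 32.9 and 35.1 CPM in WT, 24.5, 19.7 and 26.4, and 30.8, 25.4 and 22 CPM (-0.55, SE 0.16, edgeR adjusted p = 0.0499). Hoxc6 went from 22.9 ± 2.96 to 12.9 ± 3.32 and 15.5 ± 0.891 CPM (-0.70, SE 0.19, edgeR adjusted p = 0.0379). The call of Hoxd8 was lost without any of 8 libraries (0.268 without WT 1) and that of Hoxc6 without any of 6 (0.205 without WT 3), while Hoxd3 kept it in each of the 9 fits. Hoxb5 was at -1.22 (SE 0.36, edgeR adjusted p = 0.05004) and Hoxd4, between Hoxd3 and Hoxd8 in the cluster, at -0.36 without passing.

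Of 20 duct genes 3 were called lower and none higher, against 2.42% and 2.82% of all genes, with medians of -0.59 in the average, -0.28 in the group labelled Gm1142 knockout and -0.56 in the double knockout. Crisp1, a secreted protein of the epididymis, was at 25.8, 37.5 and 35.5 CPM in WT, 19.8, 11.8 and 22.4, and 16.1, 18.7 and 23.8 CPM (-0.81, SE 0.20, edgeR adjusted p = 0.0207). Emx2, a homeobox gene of the urogenital ducts, went from 8.06 ± 2.50 to 4.06 ± 0.214 and 3.30 ± 0.422 CPM (-1.14, SE 0.31, edgeR adjusted p = 0.0399). Cdh16, a cadherin of duct epithelium, was also called (-0.81, SE 0.22, edgeR adjusted p = 0.0399), but the group labelled Gm1142 knockout overlapped WT. Lhx1os, transcribed beside the duct gene Lhx1, went from 17.9 ± 2.76 to 8.52 ± 4.74 and 8.59 ± 4.0 CPM (-1.07, SE 0.31, edgeR adjusted p = 0.0457). The calls of Crisp1, Emx2 and Lhx1os were lost without 2, 7 and 6 of the libraries, with highest adjusted p of 0.129 (without WT 2), 0.245 (without WT 3) and 0.226 (without WT 1).

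The summed level of the duct markers Pax2, Pax8, Cdh16, Emx2 and Epcam was 69.5 to 85.5 CPM in WT, 71.8 to 80.2 CPM in the group labelled Gm1142 knockout and 44.7 to 59.6 CPM in the double knockout. It was thus below WT in the double knockout and within the WT range in the other group, while Crisp1 and Hoxd3 were below WT in both. The part of duct tissue carried along in a dissection was not tested.

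**Figure D4:**
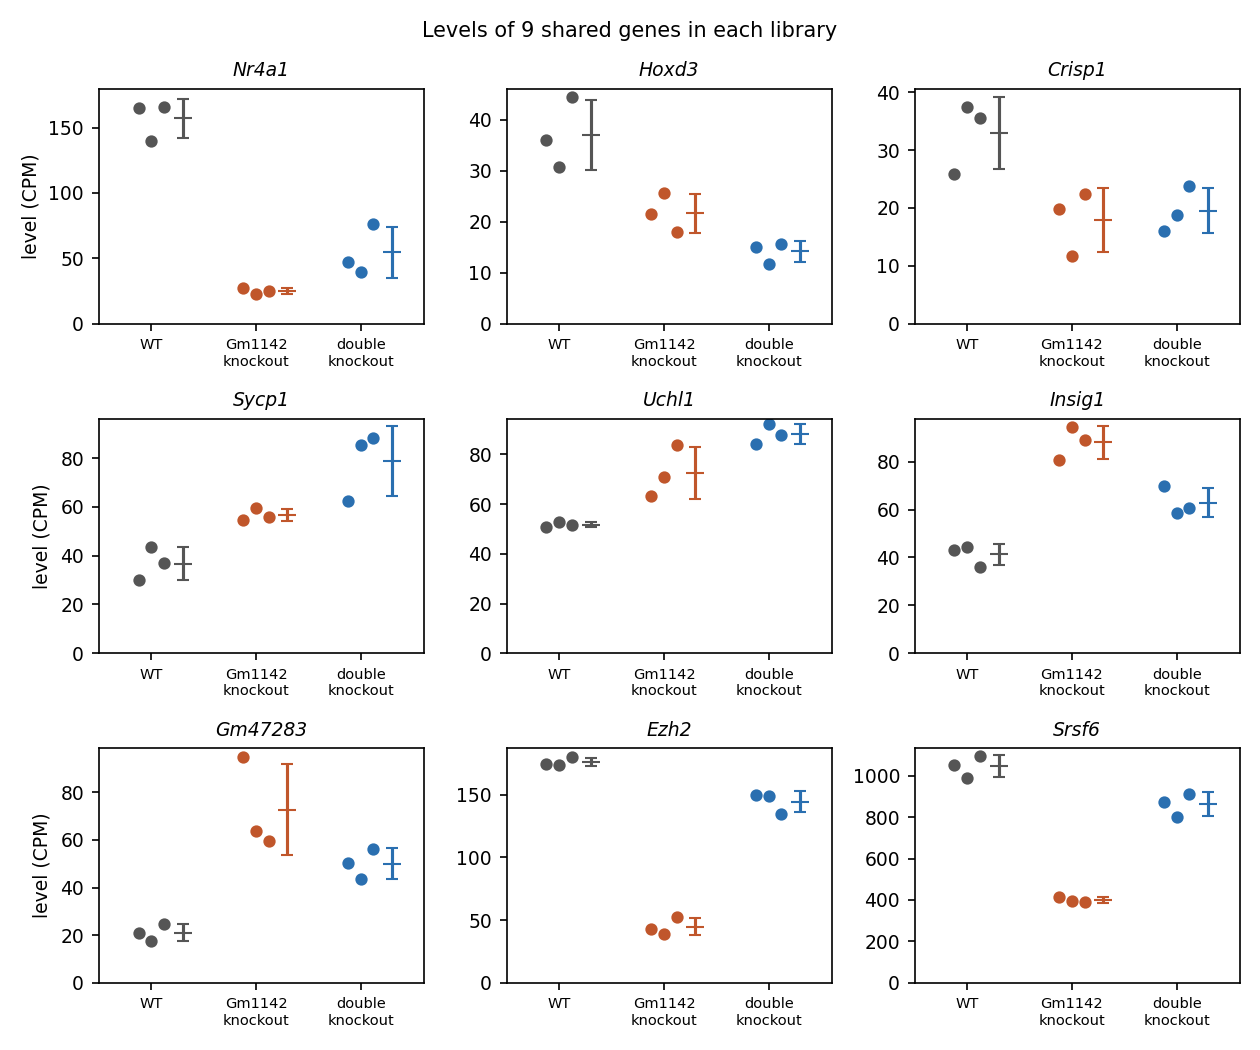
Levels in CPM of 9 shared genes, with a point for each library and the mean with its SD (n = 3) beside them. Nr4a1, Hoxd3 and Crisp1 are below WT in both groups and Sycp1, Uchl1, Insig1 and Gm47283 above it, while Ezh2 and Srsf6 are far below WT in the group labelled Gm1142 knockout and only just below it in the double knockout.

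In the cholesterol pathway, 2 of 26 tested genes were shared higher and 1 shared lower, against 1.07% and 1.11% of all genes. Insig1, which holds the SREBP activator of the pathway in the endoplasmic reticulum when sterols are plentiful and is itself an SREBP target, was at 43.3, 44.3 and 36.2 CPM in WT, 80.8, 94.6 and 89.1 CPM in the group labelled Gm1142 knockout, and 69.8, 58.4 and 60.5 CPM in the double knockout. Both groups are clear of WT (0.85, SE 0.13, edgeR adjusted p = 5.24e-04). Sc5d, an enzyme of the last steps of cholesterol synthesis, was at 13.4, 15.2 and 16.4 CPM in WT, 29.5, 21.0 and 30.7, and 20.5, 24.7 and 26.7 CPM (0.77, SE 0.19, edgeR adjusted p = 0.0207). Ebp, the sterol isomerase of the step before it, ran the other way, from 18.0 ± 0.564 to 8.60 ± 2.07 and 12.7 ± 0.685 CPM (-0.78, SE 0.20, edgeR adjusted p = 0.0302). Sqle, another SREBP target, was at 0.27 (SE 0.12, edgeR adjusted p = 0.229) and did not pass. The call of Insig1 held throughout, while Sc5d lost it without any WT library (0.134 without WT 1) or replicate 3 of the group labelled Gm1142 knockout, and Ebp without any of 5 libraries (0.135 without WT 1).

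Several abundant regulators were shared by the rule with very unequal size. Ezh2, the methyltransferase of Polycomb complex 2, was at 175, 174 and 180 CPM in WT, 42.5, 39.1 and 52.2 CPM in the group labelled Gm1142 knockout, and 150, 149 and 135 CPM in the double knockout. The double-knockout libraries are below WT by a small step (-0.29, SE 0.12, edgeR adjusted p = 0.514), and the averaged change of -1.13 (SE 0.11, edgeR adjusted p = 1.79e-06) came mainly from the other group. Mtf2, a Polycomb-recruiting subunit, was higher (0.48, SE 0.12, edgeR adjusted p = 0.020, and 0.157 without WT 3), and 9 of the 11 tested genes of the complex, Eed and Suz12 among them, were not called.

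Of 30 splicing regulators 1 was called higher and 4 lower, against 2.82% and 2.42% of all genes, and Srsf6 and Clk4 were shared lower, against 1.11%. The splicing factor gene Srsf6 was at 1052, 989 and 1094 CPM in WT, 416, 394 and 391 CPM in the group labelled Gm1142 knockout, and 873, 799 and 912 CPM in the double knockout (-0.83, SE 0.09, edgeR adjusted p = 4.80e-06). Clk4, a kinase that phosphorylates such factors, went from 449 ± 28.7 to 210 ± 30.4 and 375 ± 37.7 CPM (-0.68, SE 0.10, edgeR adjusted p = 6.14e-04). For Ezh2, Srsf6 and Clk4 the change differed between the knockout groups (edgeR adjusted p = 4.32e-08, 3.94e-07 and 9.51e-05), and none passed in the double knockout by itself.

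Of 23 heat-shock genes 1 was called higher and 3 lower, against 2.82% and 2.42% of all genes. Hsph1, a nucleotide exchange factor of Hsp70, went from 81.6 ± 4.71 to 40.3 ± 5.73 and 66.0 ± 7.56 CPM (-0.66, SE 0.12, edgeR adjusted p = 0.00334). The co-chaperone gene Chordc1 went from 335 ± 26.9 to 196 ± 39.7 and 270 ± 15.3 CPM (-0.54, SE 0.11, edgeR adjusted p = 0.00681, and 0.0776 without WT 3). Hspa4 was shared higher at 0.35 (SE 0.10, edgeR adjusted p = 0.0482), a call that 8 of the 9 single-library omissions ended (0.202 without WT 3).

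Of 79 nuclear oxidative phosphorylation genes 5 were called higher and 1 lower, against 2.82% and 2.42% of all genes. Atp5f1, Cox4i1 and Ndufa6 were shared, which is near the share of 2.19% over all genes. Atp5f1, a stalk subunit of ATP synthase, was at 68.1, 80.0 and 77.5 CPM in WT, 147, 155 and 138, and 89.9, 101 and 92.4 CPM (0.65, SE 0.11, edgeR adjusted p = 0.0017). The complex I gene Ndufa6 was lower (-0.53, SE 0.12, edgeR adjusted p = 0.0154), with 0.0996 without WT 3. Cox4i1 (0.46, SE 0.13, edgeR adjusted p = 0.0443) kept its call in 2 of the 9 fits. Fdxr, the reductase at the head of the electron chain of mitochondrial P450 enzymes and the only shared gene among 19 Leydig-cell genes, was at 263, 232 and 242 CPM in WT, 99.2, 99.7 and 115, and 210, 206 and 215 CPM (-0.73, SE 0.10, edgeR adjusted p = 1.25e-04). Mitochondrial counts were 32.5%, 38.9% and 35.2% in the group labelled Gm1142 knockout, against 29.4%, 32.7% and 30.1% in WT and 29.6%, 27.1% and 32.9% in the double knockout. Actb was at 305, 172 and 238 CPM in that group, against 326, 301 and 316 CPM in WT and 302, 396 and 268 CPM in the double knockout. Replicate 1 of the group labelled Gm1142 knockout was within the WT range for both. The part of these traits in these gene groups was not tested.

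**Figure D5:**
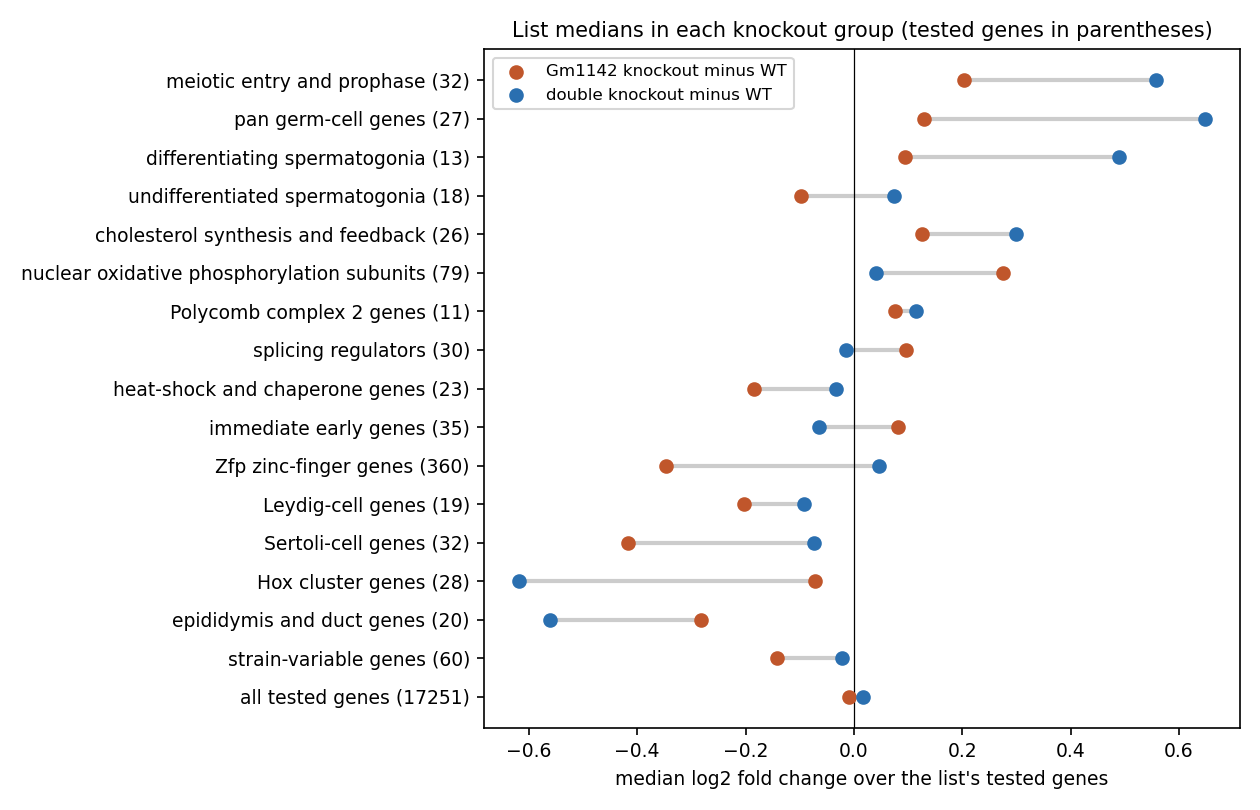
Median log2 fold change over the tested genes of each list, against WT, for the group labelled Gm1142 knockout (orange) and the double knockout (blue), with the number of tested genes after each name. The pan germ-cell, meiotic, differentiating spermatogonia, cholesterol, oxidative phosphorylation and Polycomb lists have medians above 0 in both groups. The Hox, duct, Sertoli, Leydig, heat-shock and strain-variable lists have medians below 0 in both. The medians of undifferentiated spermatogonia are -0.10 and 0.07, those of zinc-finger genes -0.35 and 0.05, and those of all tested genes -0.01 and 0.02.

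Other lists had few shared members or none. Of 32 Sertoli-cell genes 5 were called lower in the average and none higher, against 2.42% and 2.82% of all genes. Sox9 and Sox8 were among them, but none was shared, since the double knockout overlapped WT (medians -0.42 and -0.07). The summed level of the Sertoli markers Sox9, Amh, Wt1, Cldn11 and Dhh was 425 to 466 CPM in WT. It was 466 to 495 CPM in the group labelled Gm1142 knockout, so not lower there, and 390 to 460 CPM in the double knockout. That of the Leydig markers Star, Cyp11a1, Cyp17a1, Insl3 and Hsd3b1 was 260 to 483 CPM in WT. In the group labelled Gm1142 knockout the Leydig sum was 158 to 258 CPM, below WT. In the double knockout it was 230 to 428 CPM and overlapped WT. EdgeR called 0 genes in the lists for peritubular (16), stromal (22), endothelial (17), red-cell (7), p53-target (19) and retinoic acid genes (17), where 1, 4, 2, 0, 4 and 1 had an unadjusted p under 0.05. DESeq2 called 0 in these lists but for Stra8 of the last, and limma-voom called 1 stromal and 1 retinoic acid gene. Of 360 zinc-finger genes 4 were called higher and 15 lower, against 2.82% and 2.42% of all genes. The 2 shared higher and 4 shared lower are no more than the 1.07% and 1.11% over all genes.

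The largest other shared gains, by the smaller of the 2 changes, were in genes of low level. Clcn1, the chloride channel gene of skeletal muscle, was at 2.11, 2.17 and 2.15 CPM in WT, 8.74, 7.16 and 9.59 CPM in the group labelled Gm1142 knockout, and 7.08, 6.20 and 7.70 CPM in the double knockout. The WT libraries are equal within counting error, and the averaged change was 1.83 (SE 0.33, edgeR adjusted p = 0.00268, and at most 0.0251 when 1 library was left out). Cox11, which delivers copper to cytochrome c oxidase, went from 3.49 ± 0.744 to 16.5 ± 2.16 and 7.21 ± 1.04 CPM (1.64, SE 0.28, edgeR adjusted p = 0.00163), with 43.2% of its words in an overlapping gene. The X-linked pseudogene Mageb8-ps went from 8.11 ± 4.10 to 40.2 ± 10.7 and 18.4 ± 4.60 CPM (1.73, SE 0.28, edgeR adjusted p = 8.75e-04). Aifm3, a relative of the apoptosis-inducing factor, went from 14.9 ± 1.77 to 33.5 ± 4.57 and 27.9 ± 9.02 CPM (1.02, SE 0.20, edgeR adjusted p = 0.00497), lost at 0.0521 without WT 1.

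Kdm8, a JmjC-domain hydroxylase gene, had nearly equal changes in the groups, from 6.48 ± 1.40 to 13.3 ± 2.88 and 13.2 ± 3.93 CPM (1.03, SE 0.27, edgeR adjusted p = 0.0318). Frmpd1, Col22a1 and Anks1b had averages of 1.82, 1.33 and 1.21, and Tmem266, Gnb1l, Ttn, Crybg2 and Epha8 had averages of 2.56, 1.60, 1.35, 1.31 and 1.19. Each of these 9 genes lost its call without at least 1 library. The highest adjusted p was 0.182 for Kdm8 (without WT 1), 0.129 for Frmpd1 (without WT 3), 0.155 for Col22a1 (without WT 2), 0.185 for Anks1b (without WT 1), 0.208 for Tmem266 (without WT 1), 0.123 for Gnb1l (without WT 2), 0.130 for Ttn (without WT 1), 0.0985 for Crybg2 (without WT 1) and 0.210 for Epha8 (without WT 3).

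On the lower side, Veph1, which encodes a protein with a pleckstrin homology domain, was at 4.21, 3.94 and 5.60 CPM in WT, 0.388, 0.511 and 0.426, and 0.765, 1.80 and 0.906 CPM. In the knockout libraries it was near the level of 3 counts, and the averaged change of -2.60 (SE 0.49, edgeR adjusted p = 0.00339) is accordingly imprecise. The zinc-finger gene Zfp114 was at 10.5, 8.67 and 9.91 CPM in WT, 2.33, 1.28 and 2.13, and 2.30, 6.20 and 4.98 CPM (-1.69, SE 0.33, edgeR adjusted p = 0.00476). Ikbke, a kinase of interferon and NF-kappaB signalling, was at 41.3, 34.1 and 37.7 CPM in WT, 17.9, 25.1 and 19.0, and 23, 21.8 and 18.8 CPM. Its groups changed by almost the same amount (-0.88, SE 0.19, and -0.83, SE 0.19), and the average was -0.85 (SE 0.16, edgeR adjusted p = 0.00327). These 3 genes kept their call whichever library was left out.

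Klhdc7a, Zfp324 and Zfp946 also had similar changes in the groups, with averages of -0.88 (SE 0.21), -0.99 (SE 0.22) and -0.73 (SE 0.16) and edgeR adjusted p of 0.0207, 0.0118 and 0.011. Pold4, a small subunit of DNA polymerase delta, the heparan sulfate enzyme gene Hs3st3b1, the histone gene Hist1h3d and the membrane protein gene Cdcp1 had averages of -1.44, -1.32, -1.42 and -1.64 from 5.13 to 8.29 CPM in WT. Each of these 7 lost its call without at least 1 library, with highest adjusted p of 0.128 for Klhdc7a (without WT 2), 0.115 for Zfp324 (without WT 1), 0.121 for Zfp946 (without WT 1), 0.161 for Pold4 (without WT 1), 0.298 for Hs3st3b1 (without WT 2), 0.123 for Hist1h3d (without WT 3) and 0.154 for Cdcp1 (without WT 3). In all, 34 of the 79 shared genes chosen by the naming rule kept the call in each of the 9 fits, and 96 of the 377 shared genes stayed shared in each.

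Some genes were called in the average through 1 group alone and are no shared move. 9330162G02Rik was at 16.5, 21.1 and 27.3 CPM in WT, 288, 406 and 310 CPM in the group labelled Gm1142 knockout, and 14.7, 17.9 and 22 CPM in the double knockout. Gm26813 and Gm45221 behaved alike, at 7.63 ± 0.0793 and 34.0 ± 3.72 CPM in WT, 98.8 ± 21.9 and 217 ± 40.1 CPM in the group labelled Gm1142 knockout, and 7.28 ± 2.66 and 33.7 ± 5.53 CPM in the double knockout. In the double knockout each of the 3 lay at or just below WT (log2 changes of -0.25, -0.13 and -0.03).

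Read sharing was also measured over all shared genes. At least 10% of the words lay elsewhere in 5.95% of the shared higher, 8.99% of the shared lower and 7.14% of all tested genes with a sequence. At 50% of the words or more the shares were 2.16%, 3.17% and 1.61%. The 6 shared lower genes at this level include the chromosome 1 copies Gm28438, Gm28437 and Gm10222. The 4 shared higher genes include mt-Nd3, mt-Co3 and mt-Nd4l, so both shares rest in large part on the mitochondrial pairs. For some families the sum moved less than the member. Dynlt1b, a dynein light chain gene with near-identical copies (83.2% of its words elsewhere), was lower by -1.17 (SE 0.18, edgeR adjusted p = 5.97e-04), while the sum of its family was at -0.46 (SE 0.12, edgeR adjusted p = 0.0293). Mfap1a, a splicing-associated gene with a twin in Mfap1b, was called at -0.45 (edgeR adjusted p = 0.028), while the sum of both was at -0.30 (SE 0.12, edgeR adjusted p = 0.148) and did not pass.

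By annotation class, 18 of 579 tested long intergenic RNAs were shared lower (3.11%, against 1.11% of all genes) and 2 shared higher, and protein-coding genes were close to the background (305 of 13758 shared, 2.22%). For genes annotated as antisense, 7 of 685 were shared (1.02%, against 2.19% of all genes). No label gives the strand setting of the counting, so reads of antisense genes may be mixed with those of overlapping genes. Of the words of Tmem147os (-0.75, SE 0.18, edgeR adjusted p = 0.020), 14.4% lie in an overlapping gene, and reads there are not certain to be its own. Tmem147, its neighbour, was also shared (-0.54).

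For strain, shared genes were read by position and by a list of genes that vary between inbred mice. Shared higher genes had a shared higher tested neighbour in 19 of 185 cases (10.3%), against 2.16% of all tested genes, and shared lower genes a shared lower neighbour in 11 of 189 (5.82%), against 2.20%. These include the mitochondrial genes and the chromosome 1 copies. Other neighbours that moved together were Il17rb and Chdh on chromosome 14 (-1.06 and -1.24, both lost without WT 2, among other libraries), Smurf1 and Arpc1a on chromosome 5 (0.53 and 0.50), Scml2 and Gm15262 on X (0.55 and 0.60) and Mrpl13 and Mtbp on chromosome 15 (0.56 and 0.49). Linked alleles, shared regulation and overlapping transcripts cannot be told apart here. By chromosome, 3 of 14 mitochondrial, 3 of 11 Y and 18 of 603 X genes were shared, against 2.19% of all tested genes.

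Of 60 tested genes on the strain list 3 were called higher and 2 lower, against 2.82% and 2.42% of all genes, and none was shared. Nnt, the mitochondrial transhydrogenase gene whose product is lost through a deletion in the C57BL/6J strain, was at 6.13, 9.86 and 6.68 CPM in WT, 20.4, 28.1 and 26.6 CPM in the group labelled Gm1142 knockout, and 7.65, 9.14 and 11.6 CPM in the double knockout. The double knockout overlapped WT, and the groups differed (edgeR adjusted p = 6.16e-04), with changes of 1.72 (SE 0.26) and 0.31 (SE 0.27). Mid1 had the same pattern, Tulp4 was called higher at 0.41 (SE 0.11), and Gas5 and Gstm6 were called lower at -0.45 (SE 0.11) and -0.54 (SE 0.11). Wdfy1, whose level differs between strains, was at -0.30 without passing. Of 20 tested genes around the targets on X none was shared, and the targets themselves were the only 2 called. The genetic background of the 3 groups is unnamed in the labels, and its part in these differences was not tested.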

How the data were processed

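The authors deposited a table of raw read counts per gene with a column for each of the 9 libraries. Cutadapt, Bowtie2, STAR, featureCounts and the build mm39 are named per the submitters' processing notes. Versions, annotation, strand setting and the handling of multi-mapping reads are not given in the sources used here, and the last 2 bear on genes with copies or overlaps. Symbols matched for 52073 of 56691 genes (GENCODE, GRCm38). Counts were analysed in R 4.3.3 with edgeR 4.0.16: default filter by group (minimum count 10, total 15), TMM scaling, a quasi-likelihood fit with 1 term per group and 6 residual degrees of freedom, Benjamini-Hochberg adjustment over 17251 genes and a threshold of 0.05. The knockout groups were averaged with equal weight. Levels are CPM on scaled library sizes, and a standard error is the log2 fold change divided by the square root of F. Floors of 3 counts cover counting error only, as reads lacking molecular identifiers cannot be taken for separate molecules. Read sharing is the share of a gene's 50-base words found in other GENCODE genes. The test was checked on simulated data.

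Members, the 25 named and 14 symbol-pattern lists and the tests were chosen with earlier results of these data known. Named genes were the targets, the 15 shared genes each way with the largest smaller change of at least 2 CPM on the higher side, 6 predicted genes or pseudogenes by the same measure, genes that passed in each group, up to 4 shared members per list and up to 5 with opposite signs. List members named as not passing, the last genes of X and Y, the neighbours and the families were chosen after their values were seen. Alternatives were DESeq2 1.42.0 and its size factors, limma-voom (limma 3.58.1), no filter and a stricter filter (1 CPM in 3 libraries, 100 counts), the knockout libraries as 1 group, the replicate number as a block, removal of mitochondrial genes and copies, a minimum log2 fold change of 1 and leaving out each library. A fit without 2 libraries and sums over families of copies were added after seeing the data.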

Additional observations from a re-analysis of the deposited data

Results flagged for a closer look

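Of the genes named above, 32 changed by different amounts in the 2 knockout groups (edgeR test of double knockout minus Gm1142 knockout, adjusted p from 1.81e-11 to 0.0476). The targets 8030474K03Rik and Gm4779 had differences of -8.94 and -9.31 on the log2 scale, whose size is not a measured change because the double-knockout counts were 0. The called genes that were no shared move, 9330162G02Rik, Gm26813 and Gm45221, had differences of -4.21, -3.81 and -2.70.

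Among shared lower genes, those nearer to WT in the double knockout were Gm36936 (2.34), Gm2044 (2.32), Ezh2 (1.69), E430024P14Rik (1.62), 2700081O15Rik (1.17), Srsf6 (1.10), Nr4a1 (1.10), Fdxr (1.01), Mrps15 (0.97), C430049B03Rik (0.88), Clk4 (0.84), Hsph1 (0.71), Ndufa6 (0.51) and Chordc1 (0.46). Hoxd3 was farther from WT in the double knockout (-0.62).

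Among shared higher genes, those nearer to WT in the double knockout were Zfp951 (-1.28), Cox11 (-1.20), Per1 (-1.17), Mageb8-ps (-1.14), Mios (-0.75), Mrpl13 (-0.73), Atp5f1 (-0.64), Cox4i1 (-0.57), Gm47283 (-0.55), Insig1 (-0.49) and Mtf2 (-0.48). Sycp1 was farther from WT in the double knockout (0.48).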

How the results depend on the processing

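No result that could be compared turned its direction. Genes merged into a family had no value of their own in the summed fit and were not compared there. The sums of the 3 mitochondrial pairs had the sign opposite to that of the mitochondrial genes, as given above. With the 6 knockout libraries as 1 group, 4 genes were called higher and 4 lower, each of them shared. A minimum log2 fold change of 1 left 97 called higher and 96 lower, 34 shared higher and 47 shared lower, and 36 shared genes that differed between the knockout groups. The genes that passed in each group were 20 without a filter, 13 with DESeq2, and 2 without mitochondrial genes and their copies or with families of copies summed. Without the deepest library and the one with the lowest scaling factor, 635 genes were called lower and 343 shared lower. Leaving out 1 library gave 109 to 490 called higher, 134 to 578 called lower, 57 to 200 shared higher, 97 to 294 shared lower, 5 to 9 that passed in each group and 118 to 215 that differed in size. The low ends came from WT libraries, except that the 118 came without replicate 3 of the group labelled Gm1142 knockout. That fit had 236 called higher and 262 lower. Same-numbered libraries had correlations of -0.267 to 0.101 between their deviations, so the numbers are not shown to pair them. With the replicate number as a block, 324 genes were called higher, 296 lower, 130 shared higher, 144 shared lower and 7 passed in each group.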
